A study of Mus musculus with 29 samples.

Results

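The comparison covers sorted TdTomato podocytes 4 days after an injection of the immunotoxin LMB2 against TdTomato podocytes taken on day 0, before the injection. It rests on every array whose title gives the TdTomato population at day 4 (4 arrays, 4 mice) or at day 0 (4 arrays, 4 other mice), which makes 8 of the 29 arrays of the series. The day 4 mice are labelled MC151, MC692, MC822 and MC823, and the day 0 mice MC122, MC731, MC742 and MC753. All were male Pod-hCD25T/G mice on a C57BL/6J background, 8 weeks old. The protocol names a heminephrectomy followed by 25 ng of LMB2 per gram of body weight. Whether the day 0 mice had also lost a kidney is not stated. The labels do not say what the colours mean. By general knowledge of this mosaic model, the TdTomato cells are the podocytes with human CD25, the target of LMB2, on their surface, and the EGFP cells are neighbouring podocytes without it. The reporters and human CD25 themselves were not measured here.

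Podocytes are postmitotic epithelial cells whose interlocking foot processes, joined by the slit diaphragm, cover the glomerular capillaries. LMB2 brings a fragment of Pseudomonas exotoxin into cells that display human CD25, where it modifies elongation factor 2 and stops protein synthesis. A cell hit by such a toxin can go on making RNA for some time, and the arrays measured RNA, not protein.

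Levels are log2 signal minus the log2 75th percentile of each array, so a level of 0 lies at that percentile, and a difference of 1 is a doubling. Between 48.2% and 65.5% of spots were well above background over the 29 arrays, and no spot was saturated. The Pearson correlation over genes between arrays of one group was 0.956 to 0.979 at day 4 and 0.977 to 0.988 at day 0. Every day 4 array lay in the second row of its slide and every day 0 array in the first, so day and row cannot be told apart. Each of the 4 slides held 1 array of each day, and values within slides are given below. In sorted cells measured in bulk, fewer cells of a type and less RNA per cell cannot be told apart.

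Of 15628 genes tested, 8958 differed between day 4 and day 0 at a limma adjusted p under 0.05 (57.3%). The signal was higher at day 4 for 3347 genes (21.4%) and lower for 5611 (35.9%). Each array was also centred on its median gene, that is, shifted by the median over genes of its difference from a reference. The reference was, per gene, the average of the day 4 and day 0 TdTomato means. With this centring the split was 4090 higher and 3567 lower, so that higher genes made up 53.4% of the calls in place of 37.4%. Without it the median difference of all genes was -0.29. The higher and the lower calls were of unlike size. Genes called higher had a median difference of 1.98 and reached 14.12, and genes called lower had a median of -0.84 and reached -3.03. At least log2 2 separated the days for 1657 genes called higher and for 23 called lower, and at least log2 4 for 646 and 0. On each of the 4 slides the difference had the same sign for 3250 of the 3347 higher genes and 5521 of the 5611 lower ones. The calls came from these same arrays, so the choice of genes largely sets these counts, and they are no replication.

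**Figure D1:**
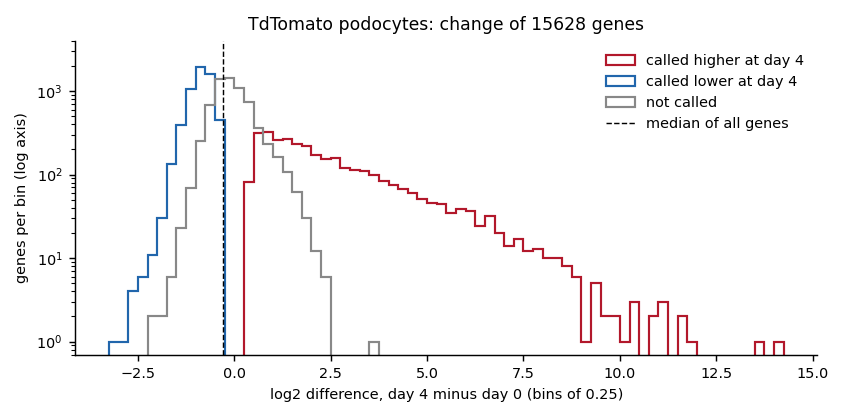
Number of genes (log axis) per bin of 0.25 in the log2 difference, day 4 minus day 0, in TdTomato podocytes, as separate outlines for genes called higher, called lower and not called. The outline of genes called higher runs out to 14.12, that of genes called lower ends at -3.03, and the dashed line marks the median of all genes at -0.29.

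Among 1883 genes with a mean level over all 29 arrays of the series above 4, 11.4% were called higher and 54.7% lower. Their median difference was -0.55. Among 2251 genes between -2 and 0 these shares were 20.9% and 34.4%, and the median difference was -0.31. No share is read from the dimmest genes, which lay near background and could pass the filter through the arrays where they were high.

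The sorted cells kept a podocyte profile at both days, at a lower level of many podocyte genes at day 4. Nphs1, which encodes nephrin, the core adhesion molecule of the slit diaphragm, stood at 6.25, 6.20, 6.23 and 6.41 on the day 4 arrays, against 7.79, 7.29, 7.68 and 7.65 on the day 0 arrays. All 4 day 4 arrays lay below all 4 day 0 arrays. A lack of overlap, here and below, was common in this comparison: 7571 called genes showed it in one direction or the other, 48.4% of all genes tested. The means were 6.27 ± 0.10 at day 4 and 7.60 ± 0.22 at day 0 (SD, n = 4 each), and the difference was -1.33 ± 0.17 (SE, adjusted p = 5.4e-07), a 2.52-fold fall.

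Synpo, the actin-associated protein synaptopodin, measured 6.39, 6.38, 6.75 and 6.86 at day 4 and 7.67, 7.59, 7.81 and 7.62 at day 0 (-1.07 ± 0.14, adjusted p = 7.4e-07). Wt1, a transcription factor that maintains podocyte identity, measured 7.12, 7.00, 6.93 and 7.31 at day 4 and 8.53, 7.96, 8.28 and 8.06 at day 0 (-1.12 ± 0.21, adjusted p = 9.7e-05). Podxl, the charged surface protein podocalyxin, measured 5.57, 6.17, 5.25 and 6.43 at day 4 and 6.85, 7.19, 7.08 and 7.12 at day 0 (-1.20 ± 0.28, adjusted p = 0.00094). None of these 3 genes showed overlap between the days. Des, the intermediate filament desmin that is a common marker of podocyte injury, measured -1.91, -1.34, -1.45 and -0.82 at day 4 and -1.53, -1.55, -1.56 and -1.45 at day 0, and did not pass the test (0.14 ± 0.26, adjusted p = 0.66).

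**Figure D2:**
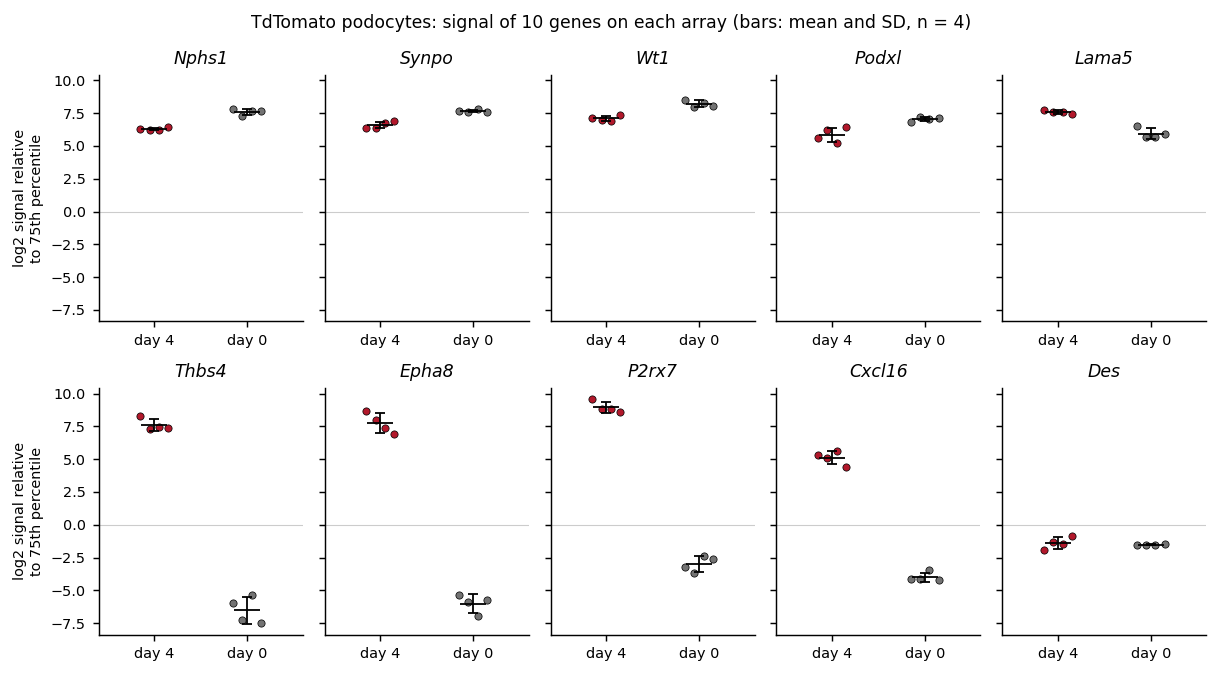
Level of 10 genes on each array (log2 signal minus the log2 75th percentile) in TdTomato podocytes, with day 4 on the left and day 0 on the right of each panel, points for the 4 arrays and bars for the mean and SD. Nphs1, Synpo, Wt1 and Podxl lie lower at day 4 without overlap, Des overlaps, Lama5 lies higher, and Thbs4, Epha8, P2rx7 and Cxcl16 lie far higher at day 4.

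The wider podocyte lists held more falls than rises, beside 35.9% of all genes called lower and 21.4% called higher. Here and below, counts and medians of a list cover its members that passed the filter on low signal (893 of 973 on the array over all 41 lists). A dim member could pass through the arrays where it was high, so they describe the tested members and support nothing about the rest. Of 20 slit diaphragm genes 12 were called lower and 1 higher (median -0.64, and 9 lower and 1 higher after centring on the median gene). The falls included Plce1, phospholipase C epsilon (-1.29 ± 0.15), Nck2, an adaptor that links nephrin to actin (-1.16 ± 0.18), and the receptor phosphatase Ptpro (-1.13 ± 0.14). The single rise was Magi1, a junctional scaffold (0.71 ± 0.19, adjusted p = 0.0035), and the mean of its probes did not pass the test (0.41, adjusted p = 0.18). Of 19 foot process genes 16 were called lower and 0 higher (median -0.97, 14 lower after centring), among them Thsd7a (-1.46 ± 0.23) and the lysosomal protease Ctsl (-1.32).

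Of 14 podocyte transcription factors 10 were called lower and 1 higher (median -1.02, and 8 lower and 2 higher after centring). Beside Wt1 they included Foxd2 (-1.45 ± 0.17) and Foxc1 (-1.40), which both act in podocyte differentiation. Zhx2, which codes for a transcriptional repressor, went the other way, at -1.64, -0.49, -1.56 and -1.10 at day 4 and -3.71, -2.63, -3.11 and -3.17 at day 0, without overlap (1.96 ± 0.38, adjusted p = 0.00013, well above background on 3 of the 4 day 0 arrays). Of 19 genes of the basement membrane and of signals to the capillary, 11 were called lower and 3 higher (median -0.67, and 8 lower and 3 higher after centring). Col4a4, a chain of the mature type IV collagen network, fell by 1.25 on the log2 scale (SE 0.15, adjusted p = 2.6e-07), and the semaphorin Sema3g fell by 1.41. Lama5, the alpha chain of the mature basement membrane laminin, rose: it measured 7.76, 7.55, 7.58 and 7.43 at day 4 and 6.52, 5.69, 5.69 and 5.87 at day 0 (1.64 ± 0.34, adjusted p = 0.00029).

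The largest fitted difference was that of Thbs4, a secreted thrombospondin found in matrix of muscle and tendon. It measured 8.33, 7.30, 7.44 and 7.40 at day 4 and -5.95, -7.26, -5.33 and -7.45 at day 0, where no array was well above background. The fitted difference was 14.12 ± 0.38 (adjusted p = 3.7e-18). Where no day 0 array measured a gene, the fold is given as a bound against, per day 0 array, the higher of the lowest signal among probes well above background and the gene's own signal. For Thbs4 this was at least 5615-fold. Epha8, an Eph receptor tyrosine kinase best known from the nervous system, measured 8.65, 8.01, 7.35 and 6.92 at day 4 and -5.37, -5.87, -6.98 and -5.76 at day 0 (13.73 ± 0.71, at least 6086-fold). With both day 0 groups near background, the order of these 2 genes is not set. P2rx7, the ATP-gated channel that opens the way to inflammasome activation in macrophages, measured 9.58, 8.85, 8.80 and 8.57 at day 4 and -3.25, -3.69, -2.41 and -2.63 at day 0, and was well above background on all 8 arrays. Its difference was 11.94 ± 0.40, a 3939-fold rise (adjusted p = 1.4e-16), and its 3 probes ran from 10 to 12.3. In all 3 genes every day 4 array lay more than log2 10 above every day 0 array.

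The promoters of these 3 genes are shown because these genes carry 3 of the largest rises. Sequences are RefSeq's on GRCm38.p6, from 250 bases before to 50 bases after the start, and capitals mark the match to a searched motif. Thbs4 has its window on the minus strand at chr13:92794769-92795068 and holds 24 CpG pairs. Epha8 has its window on the minus strand at chr4:136956767-136957066 and holds 56 CpG pairs. P2rx7, on the plus strand at chr5:122643677-122643976, holds 8, and the table lists 2 starts for it. The only match to any of the 4 motifs is an AP-1 match in P2rx7, 249 bases before the start.
Thbs4: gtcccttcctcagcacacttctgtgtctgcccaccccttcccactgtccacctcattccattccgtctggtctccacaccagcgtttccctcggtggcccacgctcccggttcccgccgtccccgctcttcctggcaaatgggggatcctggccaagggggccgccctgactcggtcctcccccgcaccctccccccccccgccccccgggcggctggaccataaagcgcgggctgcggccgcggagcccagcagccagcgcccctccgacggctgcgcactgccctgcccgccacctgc
Epha8: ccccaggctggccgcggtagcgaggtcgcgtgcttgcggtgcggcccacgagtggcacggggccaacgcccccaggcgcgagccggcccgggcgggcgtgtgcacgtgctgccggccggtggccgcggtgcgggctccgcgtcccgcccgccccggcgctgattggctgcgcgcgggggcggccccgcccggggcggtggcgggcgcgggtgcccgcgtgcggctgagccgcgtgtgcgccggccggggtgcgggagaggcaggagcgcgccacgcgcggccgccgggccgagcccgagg
P2rx7: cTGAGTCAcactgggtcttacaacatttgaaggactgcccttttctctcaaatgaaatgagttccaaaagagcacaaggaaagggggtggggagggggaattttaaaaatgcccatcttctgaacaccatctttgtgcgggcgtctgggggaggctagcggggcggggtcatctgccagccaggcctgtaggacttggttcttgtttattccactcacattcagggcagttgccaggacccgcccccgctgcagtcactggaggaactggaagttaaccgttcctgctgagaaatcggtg

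Further genes without any day 0 signal well above background reached high levels at day 4. Col22a1, a collagen of tissue junctions, rose at least 810-fold and the prolactin family hormone Prl2a1 at least 669-fold. Ucp1, the uncoupling protein of brown fat, rose at least 444-fold, Gli1, a transcription factor of the Hedgehog pathway, at least 419-fold, and the kinase Ripk4 at least 312-fold. Nrg1, which encodes the ErbB receptor ligand neuregulin 1, measured 3.63, 3.95, 3.60 and 3.10 at day 4 and -5.79, -5.22, -6.00 and -5.84 at day 0 (at least 339-fold). Prm1, which encodes the sperm DNA packaging protein protamine 1, measured 6.41, 5.40, 6.12 and 5.54 at day 4 and -4.96, -5.25, -6.00 and -4.91 at day 0, where 1 array was well above background (11.15 ± 0.56, adjusted p = 1.2e-13). Many of these genes are known from tissues other than the kidney.

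Genes of this kind were counted by detection. Of 1285 tested genes that were well above background on no day 0 array, 584 (3.74% of all genes tested) were so on all 4 day 4 arrays and were called higher. The filter kept a probe measured on at least 3 arrays, so the day 4 arrays alone could bring a gene into the 1285. The part of the 1285 that the 584 make up is thus partly set by the filter. The reverse, measured on all day 0 arrays and on no day 4 array, held for 15 genes (0.096% of all genes tested), of which 12 were called lower. Of the 584, 254 were well above background on none of the 4 TdTomato arrays of day 1 and 169 on all 4. In the EGFP podocytes of the same day 4 mice, 477 of the 584 were well above background on none of the 4 arrays and 6 on all 4. The choice of the 584 by their TdTomato signal at day 0 and day 4 helps to set the day 1 and EGFP counts.

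A promoter was found for 449 of the 584 genes. AP-1 (TGANTCA, the site of Fos and Jun dimers) was matched in 43, or 9.58% (exact binomial 95% interval 7.02% to 12.7%), against 8.97% of all 27025 promoters in the table. The cAMP response element (TGACGTCA) was matched in 5, or 1.11% (0.363% to 2.58%), against 2.03%. The TATA box (TATAAA) was matched in 85, or 18.9% (15.4% to 22.9%), against 15.7%, and the composite element of ATF4 (TGATGNAA) in 21, or 4.68% (2.92% to 7.06%), against 4.51%. Both strands were searched in the 300 bases, and a match is a description of letters, not a site of binding. Promoters of the genes tested (12408 found) held AP-1 in 6.82%, the cAMP response element in 3.18%, the TATA box in 11.2% and the ATF4 element in 3.17%, and only the last of these shares lay inside the interval above. Genes that no day 0 array measured and that did not pass this count (536 promoters) had shares of 11.4%, 1.68%, 17.4% and 3.73%, all 4 inside the intervals. The median number of CpG pairs per window was 7 in these genes and 7 in all promoters, but 18 in the promoters of all genes tested, 14.5 in genes called higher and 21 in genes called lower. It was 6 in the genes that no day 0 array measured and that did not pass the count.

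The called genes of inflammation mostly rose. Of 30 genes of NF-kB signalling and its chemokines, 15 were called higher and 1 lower (median 1.42, or 0.72 with unmeasured genes at their bound, and 15 and 1 after centring). Cxcl16, a membrane-bound chemokine, measured 5.32, 5.11, 5.63 and 4.43 at day 4 and -4.15, -4.11, -3.47 and -4.19 at day 0. These values did not overlap, and the difference was 9.11 ± 0.46, a 551-fold rise (adjusted p = 1e-13, measured on 3 of 4 day 0 arrays). Bcl3, an atypical IkB protein that acts in the nucleus, measured 5.48, 5.36, 5.41 and 4.86 at day 4 and -0.83, -1.27, -0.29 and -0.44 at day 0 (5.98 ± 0.42, 63.2-fold). Ccl5, a chemokine for T cells and monocytes, rose by 7.38 ± 0.73 with 2 of 4 day 0 arrays measured.

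Of 28 interferon-stimulated genes 7 were called higher and 3 lower (median 0.56, or 0.45 at the bound, and 9 and 2 after centring). Isg15, a ubiquitin-like modifier, measured 5.63, 5.10, 5.73 and 4.86 at day 4 and 0.96, 0.32, 1.71 and 0.88 at day 0, without overlap (4.36 ± 0.35, 20.6-fold, adjusted p = 4e-10). Of 18 MHC class I and antigen processing genes 4 were called higher and 5 lower (median -0.07, which is 0.21 above the median of all genes, and 4 and 3 after centring). Psmb8, a subunit of the immunoproteasome (2.27), and the light chain B2m (2.03) rose, and the class I gene H2-Q7, which shares sequence with its paralogs, fell by 0.98. Of 18 complement genes 8 were called higher and 4 lower (median 0.70, and 8 and 3 after centring). Complement C3 measured 2.96, 2.88, 4.17 and 3.22 at day 4 and -0.04, 0.01, 1.12 and 0.42 at day 0 (2.93 ± 0.47, adjusted p = 1.6e-05).

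Early response genes split. Of 34 immediate early genes 6 were called higher and 15 lower (median -0.57, and 6 and 12 after centring). Maff, a small Maf transcription factor, measured 7.87, 7.50, 8.08 and 6.95 at day 4 and 3.26, 2.66, 3.42 and 2.81 at day 0 (4.56 ± 0.31, 23.6-fold). Myc rose at least 15.1-fold and the MAP kinase phosphatase Dusp4 at least 21.3-fold. Among the classic early genes, which lie outside the naming rule and were picked after their values were seen, Fos (-0.98 ± 0.20) and Atf3 (-1.44 ± 0.26) fell, and Egr1 stood at 0.17 ± 0.22 (adjusted p = 0.52).

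Stress programmes also went different ways. Of 25 genes of the integrated stress response, in which ATF4 raises genes of amino acid supply, 9 were called higher and 3 lower (median 0.37, and 11 and 2 after centring). Fgf21, a secreted metabolic hormone, rose at least 8.40-fold. Atf5 measured 7.33, 6.94, 7.57 and 6.74 at day 4 and 4.75, 4.18, 5.14 and 4.01 at day 0 (2.62 ± 0.30), and the mitochondrial folate enzyme Mthfd2 rose by 2.93 ± 0.41. Atf4 itself, whose protein is mainly set by translation, stood at 0.37 ± 0.21 (adjusted p = 0.13), and at 0.62 after centring, which passed the test (adjusted p = 0.0049). Ddit3, which it induces, stood at -0.41 ± 0.28 (adjusted p = 0.21), and both genes were picked after their values were seen.

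The called chaperone genes all fell. Of 18 genes of the unfolded protein response in the endoplasmic reticulum 15 were called lower and 0 higher (median -0.90, and 9 and 0 after centring). Pdia4, a disulfide isomerase, measured 2.39, 1.96, 1.29 and 2.44 at day 4 and 3.22, 3.46, 3.66 and 3.32 at day 0 (-1.40 ± 0.27, adjusted p = 0.00016), and the chaperones Hyou1 (-1.20 ± 0.31) and Calr (-1.03) fell with it. Of 17 heat shock genes 11 were called lower and 0 higher (median -0.99, and 9 lower and 1 higher after centring). Hspa1a, the inducible HSP70, measured 3.65, 0.25, 3.82 and 3.33 at day 4 and 4.50, 4.71, 6.73 and 5.55 at day 0 (-2.61 ± 0.78, adjusted p = 0.0066). The groups did not overlap, and MC692 stood far below the other day 4 arrays. Its partner Dnajb1 fell by 1.66 on the log2 scale.

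**Figure D3:**
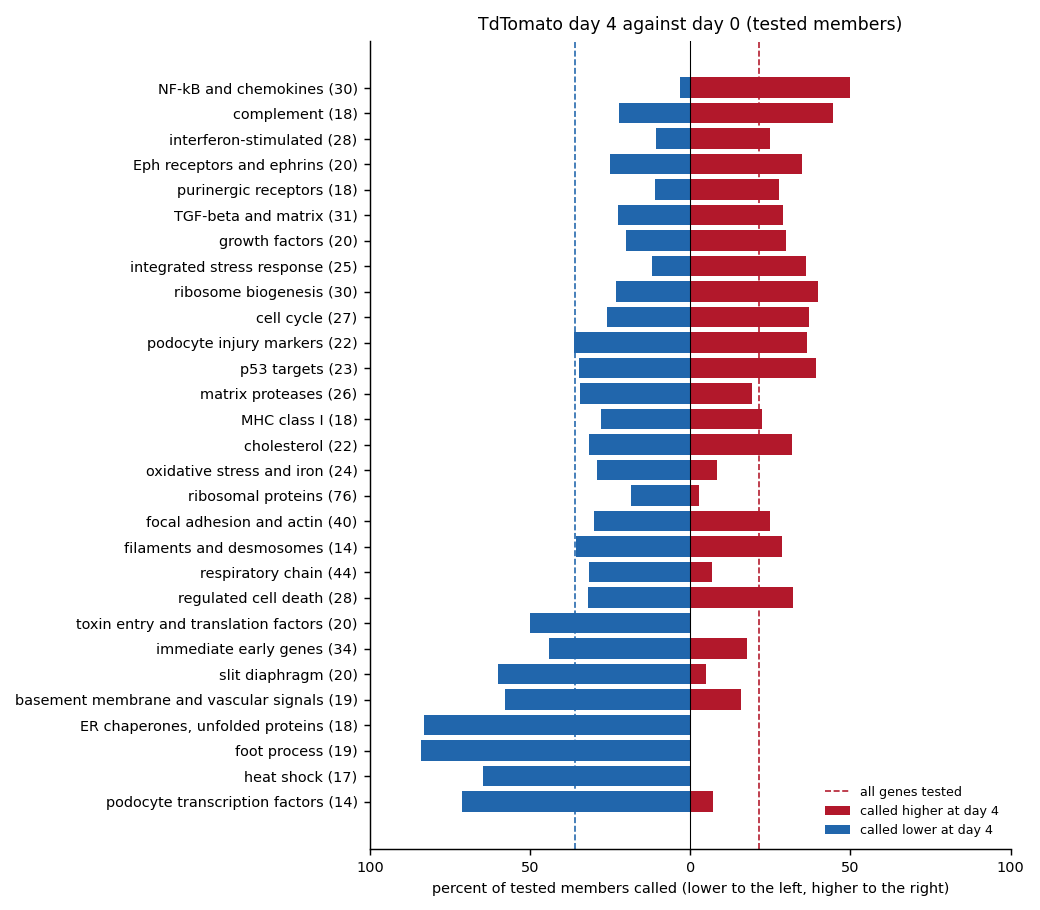
Percent of the tested members of 29 gene lists called higher (to the right, red) or lower (to the left, blue) at day 4 against day 0, with the number of members tested in brackets and dashed lines at the 21.4% and 35.9% of all genes. Lists are ordered by median difference, from NF-kB and chemokines at the top to the podocyte transcription factors at the bottom.

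Of 23 p53 targets 9 were called higher and 8 lower (median 0.11, and 10 and 5 after centring). Cdkn1a, the cell cycle inhibitor p21, measured 3.28, 2.89, 3.65 and 3.13 at day 4 and -0.51, -2.51, -0.22 and -2.24 at day 0 (4.61 ± 0.50, 24.4-fold, and its probes ran from 2.54 to 4.61). The death receptors Tnfrsf10b (3.31 ± 0.25) and Fas (2.80 ± 0.36) rose too. Of 28 genes of regulated cell death 9 were called higher and 9 lower (median -0.31, and 11 and 5 after centring). The caspase inhibitor Birc3 rose by 3.62 ± 0.29, and members that promote cell death were also among those called higher.

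Genes on the route of the toxin and of ribosomal proteins held few calls higher before centring, while ribosome biogenesis genes held more calls higher than lower. Of 20 genes for toxin entry, for making diphthamide (the residue of elongation factor 2 that the toxin modifies) and for translation factors, 10 were called lower and 0 higher (median -0.32, and 3 lower and 3 higher after centring). Eef2, the target of the toxin, stood at -0.04 ± 0.19 (adjusted p = 0.87), or at 0.21 after centring, and was picked after its value was seen. Dph6, which completes diphthamide, measured 0.59, 0.80, 1.47 and 0.88 at day 4 and 1.79, 1.94, 2.40 and 1.80 at day 0 (-1.05 ± 0.24, adjusted p = 0.00073). Of 76 cytosolic ribosomal protein genes 14 were called lower and 2 higher, and their median of -0.23 lay 0.05 above the median of all genes (5 lower and 8 higher after centring). The rises were Rpl18 (1.50 ± 0.20) and Rps28 (0.77). Of 30 ribosome biogenesis genes 12 were called higher and 7 lower (median 0.28, and 15 and 2 after centring). Nop58, a core protein of the particles that methylate ribosomal RNA, measured 4.84, 4.51, 4.73 and 3.99 at day 4 and 2.58, 1.91, 2.44 and 2.33 at day 0 (2.20 ± 0.23, adjusted p = 2.9e-08).

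Of 22 podocyte injury markers 8 were called higher and 8 lower (median 0.15, or 0.05 with unmeasured genes at their bound, and 8 and 5 after centring). The summed level of these markers (log2 of the summed linear signal) was lower at day 4 without overlap. It was at most 9.56 on the day 4 arrays and at least 9.82 on the day 0 arrays. The members described next were all among those called higher. Lgals3, the lectin galectin 3, measured 2.01, 1.25, 2.40 and 1.98 at day 4 and -2.35, -2.98, -2.14 and -2.04 at day 0 (4.29 ± 0.33, 19.6-fold, adjusted p = 1.5e-10). Cd44, a hyaluronan receptor that marks activated parietal cells and injured podocytes, measured 0.56, 0.52, 1.11 and 0.22 at day 4 and -2.79, -3.04, -2.71 and -2.13 at day 0 (3.27 ± 0.29, 9.63-fold). Timp1, an inhibitor of matrix metalloproteinases, rose by 3.05 ± 0.33.

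Matrix, adhesion and signalling lists held members at both ends. Of 31 TGF-beta and matrix genes 9 were called higher and 7 lower (median 0.42, or 0.19 at the bound, and 14 and 3 after centring). Tgfb2 measured 3.46, 3.43, 3.47 and 2.70 at day 4 and -0.46, -0.31, -1.03 and -1.19 at day 0 (4.01 ± 0.40, 16.1-fold). Of 26 matrix proteases 5 were called higher and 9 lower, with a median of 0.11 that was -0.31 with unmeasured genes at their bound (7 and 5 after centring). The collagenase Mmp13 rose at least 13.6-fold and the gelatinase Mmp9 at least 5.46-fold, and Plat, tissue plasminogen activator, fell by 1.40. Of 40 focal adhesion and actin genes 10 were called higher and 12 lower, and their median of -0.24 lay 0.04 above the median of all genes (12 and 7 after centring). Itgb6, the beta chain of an integrin that activates latent TGF-beta, rose at least 26.7-fold by its brightest probe, and its probes ran from 3.41 to 6.74.

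Of 20 growth factor genes 6 were called higher and 4 lower (median 0.41, or 0.11 at the bound, and 6 and 2 after centring). Hbegf, a ligand of the EGF receptor, measured 3.79, 3.12, 3.36 and 2.88 at day 4 and 0.35, -0.05, 0.74 and -0.01 at day 0 (3.03 ± 0.35, 8.15-fold). Egfr, the receptor itself, rose by 4.53 ± 0.48 with 3 of 4 day 0 arrays measured, and its probes ran from 1.31 to 4.53. Of 20 Eph receptors and ephrins 7 were called higher and 5 lower (median 0.48, and 8 and 4 after centring), and beside Epha8 these included the ligands Efnb3 (2.76) and Efna4 (2.23). Of 18 purinergic genes 5 were called higher and 2 lower (median 0.46, or 0.16 at the bound, and 6 and 1 after centring), and the rises included P2rx5 (2.38) and the ectonucleotidase Entpd2 (2.38).

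Of 27 cell cycle genes 10 were called higher and 7 lower (median 0.15, and 12 and 3 after centring). Ccna2, cyclin A2, measured 1.24, 1.30, 0.76 and -0.03 at day 4 and -4.42, -4.63, -4.60 and -4.08 at day 0 (5.25 ± 0.47, 38.1-fold, 3 of 4 day 0 arrays measured). The ribonucleotide reductase subunit Rrm2 (4.11) and Ccnb2 (2.82) rose, and the transcription factor E2f1 fell by 1.53. Of 22 cholesterol genes 7 were called higher and 7 lower, and their median of -0.15 lay 0.13 above the median of all genes (7 and 3 after centring). Dhcr7, of the last step of cholesterol synthesis, fell by 1.25. Of 24 oxidative stress and iron genes 2 were called higher and 7 lower, and their median of -0.19 lay 0.09 above the median of all genes (7 and 4 after centring). Hmox1, heme oxygenase 1, rose by 1.84 and Tfrc, the transferrin receptor, measured -1.02, -1.08, -0.37 and -0.61 at day 4 and 0.30, 0.72, 0.86 and 1.21 at day 0 (-1.54 ± 0.27). Of 44 respiratory chain genes 3 were called higher and 14 lower (median -0.31, and 4 and 7 after centring). Of 14 keratin, filament and desmosome genes 4 were called higher and 5 lower (median -0.29, and 4 and 2 after centring), and Pkp1, a desmosomal plakophilin, rose at least 124-fold.

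Markers of other cells were present, and their part in the results above was not tested. The counts called among them, and among the lists of other tissues below, stand beside 21.4% of all genes called higher and 35.9% called lower. For glomerular endothelium 6 of 21 markers were called higher and 1 lower, all 21 were well above background on at least 1 day 4 array, and the slide medians ran from -0.29 to 3.44. The summed level of these markers (log2 of the summed linear signal) was nonetheless 6.05 to 7.30 at day 4 and 7.39 to 8.05 at day 0. Robo4, an endothelial guidance receptor, rose by 3.92 ± 0.74. For the proximal tubule 4 of 19 markers (21.1%, near the share of all genes) were called higher and 0 lower. Slide medians ran from -1.70 to 6.40, and the summed level was 2.56 to 7.88 at day 4 and 1.51 to 4.50 at day 0. Slide 2, with the day 4 array of MC823, held the highest of these medians for both lists. Cubn, the uptake receptor cubilin, which podocytes also express, rose by 4.00 ± 0.35.

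For myeloid cells 4 of 14 markers were called higher and 0 lower, with a summed level of 5.56 to 6.89 at day 4 and 5.28 to 5.83 at day 0. C1qa, a complement chain of macrophages, was measured on no day 0 array and rose at least 15.6-fold. For lymphocytes 4 of 9 were called higher and 1 lower (summed level 2.54 to 3.46 at day 4 and 1.90 to 3.07 at day 0), and Cd79b, a chain of the B cell receptor complex, rose at least 35.7-fold. Ptprc, the CD45 antigen of all leukocytes, picked after its value was seen, stood at 0.44 and did not pass the test (adjusted p = 0.37). For mesangium and smooth muscle 3 of 13 (23.1%, near the share of all genes) were called higher and 2 lower (3.63 to 4.49 at day 4 and 4.57 to 5.51 at day 0). For the distal nephron 5 of 11 were called higher and 2 lower (4.70 to 5.48 at day 4 and 4.98 to 5.57 at day 0). For parietal epithelium 3 of 12 (25%) were called each way and 2 were measured on no day 4 array (2.84 to 3.45 at day 4 and 3.67 to 4.05 at day 0). For erythrocytes and platelets 2 of 6 were called higher and 0 lower (-0.50 to -0.08 at day 4 and -2.92 to 0.15 at day 0).

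Genes of tissues outside the kidney were among the called as well. Of 16 striated muscle genes on the array 13 passed the filter, 10 were called higher and 0 lower, and 6 of them were measured on no day 0 array and on all day 4 arrays. Their summed level was 2.95 to 3.60 at day 4 and 0.05 to 0.80 at day 0, without overlap. Myh3, the embryonic skeletal myosin heavy chain, measured 1.27, 1.65, 1.15 and 1.15 at day 4 and -6.09, -7.35, -7.07 and -7.46 at day 0 (at least 70.5-fold), and Actc1, cardiac actin, rose at least 25.1-fold. Of 16 germ cell genes 10 passed the filter, and 6 were called higher and 0 lower. Their summed level was 5.59 to 6.53 at day 4 and -0.83 to 0.02 at day 0. Prm1 is one of them and made up most of the day 4 sum. The median difference of the tested germ cell genes was 2.8, or 2.1 with unmeasured genes at their bound. Of 16 neuronal genes 13 passed the filter, and 5 were called higher and 1 lower (5.04 to 6.46 at day 4 and 4.72 to 5.35 at day 0), with Rbfox3, the nuclear marker NeuN, at least 18.8-fold higher. Of 14 epidermal genes 7 passed the filter, and 2 were called higher and 4 lower (2.37 to 2.83 at day 4 and 3.06 to 3.76 at day 0).

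The largest falls were smaller than the largest rises. Hrh1, the histamine H1 receptor, measured -4.04, -4.12, -4.53 and -3.74 at day 4 and -1.07, -0.40, -2.08 and -0.76 at day 0 (-3.03 ± 0.41, adjusted p = 1.4e-06), but its probes ran from -3.03 to -0.18. Luzp2, a leucine zipper protein, was well above background on no day 4 array and on all day 0 arrays, at least 4.75-fold lower at day 4. Aifm3, a relative of apoptosis-inducing factor, measured 3.07, 2.48, 3.17 and 3.08 at day 4 and 4.81, 5.12, 5.12 and 5.14 at day 0 (-2.10 ± 0.17, adjusted p = 5.4e-10). Adra2c, an alpha 2 adrenergic receptor, fell by 2.29, and Comp, a cartilage matrix protein of the thrombospondin family to which Thbs4 belongs, fell by 2.22 (SE 0.27 each).

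The untargeted EGFP podocytes of the same mice allow a further comparison at day 4. The day 4 change in TdTomato minus that in EGFP was called above 0 for 2503 genes (16%) and below 0 for 4429 (28.3%), or 3094 and 1968 after centring, so that the share above 0 was 61.1% in place of 36.1%. With the mouse as a block, 6715 genes were below 0. The day 4 change of Nphs1, Synpo, Podxl and Wt1 was lower in TdTomato than in EGFP. The change was -1.33 in TdTomato and -0.06 in EGFP for Nphs1 (difference -1.27 ± 0.24, adjusted p = 0.00022), and -1.07 in TdTomato and 0.22 in EGFP for Synpo (difference -1.29 ± 0.19, adjusted p = 2e-05). Wt1 (-1.12) and Podxl (-1.23, adjusted p = 0.016) also differed, but the difference of Podxl was -0.96 with quantile normalization (adjusted p = 0.15) and -0.91 after centring (adjusted p = 0.12), and did not pass the test there. For Des the change was 0.14 in TdTomato and 1.08 in EGFP, with a difference of -0.93 ± 0.37 (adjusted p = 0.042). This call was lost after centring (-0.61, adjusted p = 0.22) and without any 1 of 7 of the 8 TdTomato arrays (adjusted p up to 0.10, without the day 4 array of MC151).

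Thbs4, Epha8 and P2rx7 rose in both populations. P2rx7, well above background on all arrays of both, changed by 11.94 in TdTomato and 6.05 in EGFP (difference 5.89 ± 0.56). No day 0 array of either population measured Thbs4 or Epha8, so the sizes of these rises are bounds. Thbs4 was at least 5615-fold higher at day 4 in TdTomato and at least 86.3-fold in EGFP, and its day 4 level was 6.26 higher in TdTomato. Epha8 was at least 6086-fold higher in TdTomato and at least 35.1-fold in EGFP, and its day 4 level was 7.68 higher in TdTomato. Ripk4 was well above background on 1 of 4 EGFP arrays at each day, and the fitted difference between the populations (8.38) rests on values under background. Isg15 changed by 4.36 in TdTomato and 0.24 in EGFP. Of the 584 genes that day 0 did not measure, 559 were called higher than the EGFP change, a count that the choice of these genes by their day 4 rise helps to set.

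Some genes went the other way or did not separate the populations. Crct1, a gene of the cornified epidermis, changed by 5.11 in TdTomato and 7.94 in EGFP (difference -2.83 ± 0.86, adjusted p = 0.011), with 1 of 4 day 0 arrays measured in TdTomato and 0 of 4 in EGFP. With day 0 values raised to the lowest signal well above background the difference was -2.03, and with normexp correction -1.52. For Timp1 the change was 3.05 in TdTomato and 2.31 in EGFP, and the difference of 0.74 did not pass the test (adjusted p = 0.20), but did with the mouse as a block (adjusted p = 0.046). The difference did not pass the test for S100a6 (2.43 in TdTomato and 2.87 in EGFP, difference -0.44, adjusted p = 0.58) and Tfrc (-1.54 in TdTomato and -1.63 in EGFP, difference 0.09, adjusted p = 0.88).

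**Figure D4:**
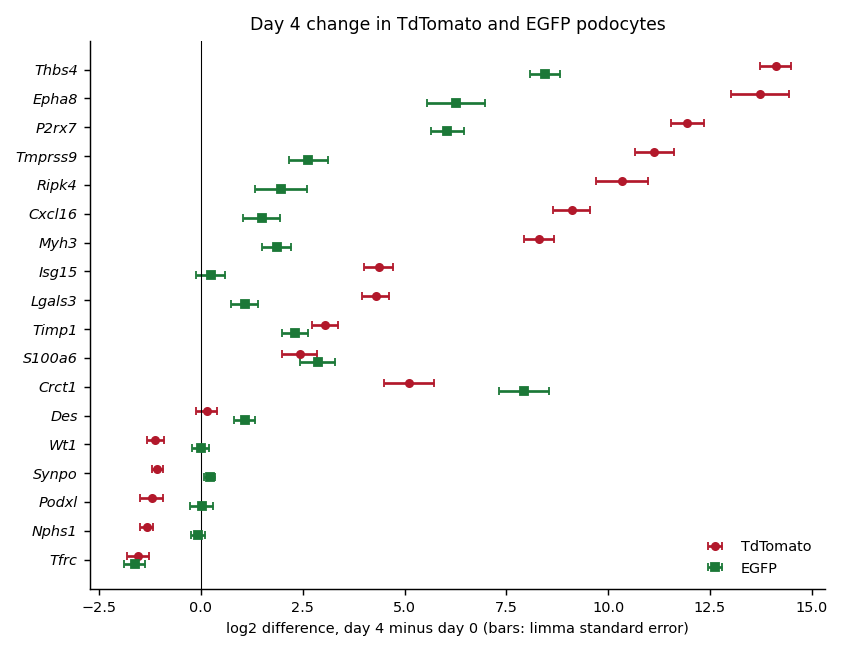
Difference of day 4 minus day 0 (log2) for 18 genes in TdTomato podocytes (red circles) and EGFP podocytes (green squares), with bars for the limma standard error. The TdTomato value lies right of the EGFP value for Thbs4 down to Timp1, left of it for Crct1, Des, Wt1, Synpo, Podxl and Nphs1, and the bars of both populations overlap for S100a6 and Tfrc. The values of Thbs4, Epha8, Tmprss9, Ripk4, Cxcl16, Myh3 and Crct1 rest in part on day 0 signals not well above background.

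Against TdTomato podocytes of day 1 (4 arrays, 4 other mice), 3771 genes were called higher at day 4 (24.1%) and 4101 lower (26.2%). Epha8 stood 2.80 higher at day 4 (adjusted p = 0.002) than at day 1, where it already averaged 4.93. Gli1 averaged 3.87 at day 4 and 3.32 at day 1, a difference of 0.55 that did not pass the test (adjusted p = 0.51). Thbs4 was well above background on none of the 4 day 1 arrays and at least 6895-fold higher at day 4. Ripk4 and Baalc, likewise not measured at day 1, were at least 383-fold and 280-fold higher at day 4. Isg15 stood 4.10 higher and Cd44 3.18 higher at day 4 than at day 1. Nphs1 was lower at day 4 than at day 1 by 0.85 on the log2 scale (adjusted p = 0.00016).

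Other genes were higher at day 1 than at day 4. Bcl3 stood at 7.62 at day 1 and was 2.34 lower at day 4. Mvk, mevalonate kinase of cholesterol synthesis, averaged 2.84 at day 4 and was 6.16 lower there than at day 1, and its difference from day 0 at day 4 was -0.37 ± 0.31 (adjusted p = 0.32). Trpm6, a magnesium channel, was likewise lower at day 4 than at day 1 by 6.15 on the log2 scale, and stood at 0.25 ± 0.34 against day 0 (adjusted p = 0.55). Of the 584 genes that day 0 did not measure, 489 were called higher at day 4 than at day 1. The choice of these genes by their signal on the same day 4 arrays helps to set this count.

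**Figure D5:**
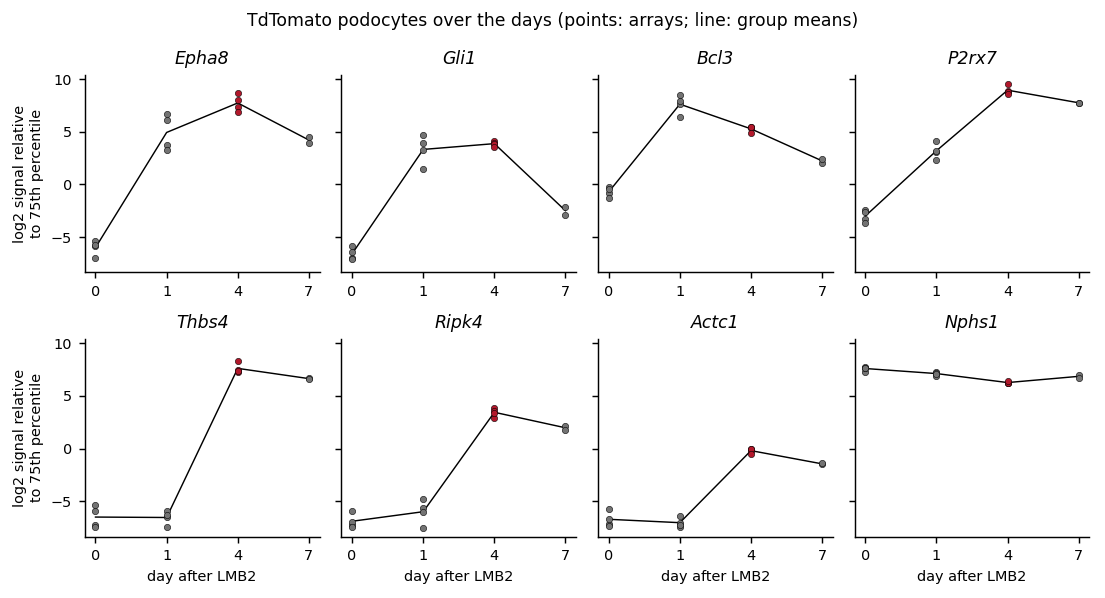
Level of 8 genes (log2 signal minus the log2 75th percentile) in TdTomato podocytes at days 0, 1, 4 and 7, with a point for each array (4, 4, 4 and 2 arrays), day 4 in red, and a line through the group means. One of the 2 day 7 arrays is that of MC221, whose column in the authors' deposited matrix does not match its scanner values. Epha8, Gli1 and Bcl3 were high by day 1, and Thbs4, Ripk4 and Actc1 were well above background on no array of days 0 and 1.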

How the data were processed

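RNA of sorted podocytes was measured on 29 one-colour Agilent arrays, and 8 of them, TdTomato at day 4 and at day 0, form the comparison. Per the file headers, spot intensity was read by Agilent Feature Extraction 11.5.1.1, and the deposited processed signal is background-subtracted. The log2 values of the authors' deposited series matrix served as an alternative. How they were scaled is not stated, and 27 of their 29 columns match the scanner files. The other 2 are those of MC221 at day 7, 1 of each population.

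The signal was taken to log2, less the 75th percentile of each array. A probe was kept if well above background on at least 3 arrays, which left 38196 probes. Probes got RefSeq symbols through their accessions (26582 had 1 symbol, 29099 none and 0 several), and the brightest probe stood for a gene. Limma 3.58.1 (R 4.3.3) fitted 8 group means to all 29 arrays, with Benjamini-Hochberg adjustment over 15628 genes and calls under 0.05. The number of arrays limits the precision. EGFP and TdTomato arrays of one mouse are paired by the labels (consensus correlation within mice 0.596, pairs 0.04 to 0.64), while day 4 and day 0 hold different mice. The method was tested on simulated data. Tables were made with pandas 2.3.3 and numpy 2.4.6 in Python 3.11.15, figures with matplotlib 3.10.9.

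The genes, the 41 lists (985 memberships, 12 genes not named on the array) and the tests were chosen with earlier results of these data known. The text names fixed genes (Nphs1, Podxl, Synpo, Wt1, Des, P2rx7, Thbs4), genes from the 15 largest changes each way, up to 5 called members per list, and the 6 largest for the other 2 comparisons. Clone and model names were passed over, and some genes under this rule are not reported here. A largest change had to be measured on every array of the higher group and, except for the difference from EGFP, to show no overlap. Alternatives were normexp background correction (offset 50), quantile normalization, other probe filters, the authors' values and the mean of a gene's probes. Normexp used the median signal, since the mean signal planned for it was not in the files. Further ones were slide or mouse as a block and only the groups compared. Each TdTomato array of the days compared was left out in turn, but no EGFP array was. Centring on the median gene was added after the data were seen. It subtracted from each array the median over genes of its difference from the average of the day 4 and day 0 TdTomato means.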

Additional observations from a re-analysis of the deposited data

Results flagged for a closer look

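Single arrays stood apart from the other 3 of their group in 9 of 200 groups of 4 arrays (gap to the next array over the range, above Dixon's critical value), and chance gives about 1 in 20. At day 4 these were MC151 for Thbs4 (8.33), MC692 for Hspa1a (0.25) and Aifm3 (2.48), MC822 for Pkp1 (3.12) and MC823 for Tgfb2 (2.70). At day 0 they were MC122 for Aifm3 (4.81) and Mvk (3.78), MC731 for Dhcr7 (1.31) and MC742 for Cxcl16 (-3.47). The calls of Thbs4, Hspa1a, Aifm3, Pkp1, Tgfb2, Dhcr7 and Cxcl16 held without each of the 8 arrays in turn.

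The day 4 change differed between TdTomato and EGFP podocytes by limma's test of the difference for 11 genes whose difference was examined by name. It was larger in TdTomato for Ripk4 (8.38), Epha8 (7.47), P2rx7 (5.89), Thbs4 (5.67) and Isg15 (4.12). It was lower in TdTomato for Crct1 (-2.83), Synpo (-1.29), Nphs1 (-1.27), Podxl (-1.23), Wt1 (-1.12) and Des (-0.93). The sizes for Thbs4, Epha8, Ripk4 and Crct1 rest in part on day 0 values under background, and the calls of Des and Podxl were lost under some settings.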

How the results depend on the processing

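The number of genes called for day 4 against day 0 was 8958, and 7657 to 10687 with the other settings (8206 to 8681 without 1 array), all within 1.5 times. The total for the difference from EGFP was 5062 to 10119 against 6932, and for day 4 against day 1 it was 6220 to 9492 against 7872. Calls lower at day 4 were 3567 with each array centred on its median gene, and the difference from EGFP was below 0 for 1968 genes with that centring. The replicate block changes the difference from EGFP: 6694 genes were below 0 with a random block for the mouse and 6715 with a fixed one, against 4429 without it. The random block left the side of the threshold the same for the day 4 change of all 100 genes named in the text, and moved no other count by over 1.5 times. For the day 4 change of these 100 genes, normexp correction kept the direction and side of the threshold for 97, quantile normalization for 95 and centring for 98. The exceptions were Des, Eef2, Ptprc and Trpm6, which passed no test in the main setting, and Atf4, called higher with each of the 3. Magi1 lost its call with the mean of its probes. Leaving out 1 array changed no call of these genes, and only Des and Eef2, not called, changed sign. The difference from EGFP was recomputed for 14 genes. Des lost its call after centring (-0.61), without the filter on dim probes (-0.93, adjusted p = 0.058) and with only the groups compared (adjusted p = 0.052). Its call was also lost without 7 of the 8 TdTomato arrays, 1 at a time. Podxl lost its call with quantile normalization and centring, and Timp1 gained one with a random (adjusted p = 0.032) or fixed (adjusted p = 0.046) mouse block. The other 11 kept their side of the threshold, but no EGFP array was left out. The cause was not tested. List medians moved by more than the spread between slides for 19 of 41 lists with centring, 9 with normexp and 3 with quantile normalization. Promoter shares with only the 250 bases before the start were 8.46% for AP-1, 1.11% for the cAMP response element, 17.6% for the TATA box and 4.01% for the ATF4 element. Signal near background limits the folds of genes that day 0 did not measure.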
